A study of Mus musculus with 30 samples.

Results

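The comparison of brush-conjugated with free L9 asked whether the quadriceps transcriptome differed when the same antisense dose was carried by a polymer or given alone. It rested on 7 of the 30 samples of the series. They were chosen by their labels and not by any measured value. pacDNA-L9 is L9 attached to a bottlebrush polymer with polyethylene glycol side chains, and it was given to 4 mice (pacDNA-L9 A to D) at 5.3 mg/kg of L9. Free L9, the unconjugated oligonucleotide, was given to 3 mice (free L9 A to C) at 5.3 mg/kg. All 7 mice are labelled DM1, which in the protocols is the HSA-LR20b (HSALR) transgenic line, in which the human skeletal actin promoter drives human skeletal actin RNA with a long CUG repeat in muscle. The labels give the strain FVB/N for 4 of the 7 and no strain for pacDNA-L9 C and D and free L9 C. They were 8 weeks old, were injected through the tail vein, and gave muscle 2 weeks after the last injection. The other groups used for orientation were 8 nontreated HSALR mice (NT), 5 FVB/N mice without the transgene (WT), 3 mice given 21.2 mg/kg and 3 given 42.4 mg/kg of pacDNA-L9, 2 mice given the polymer alone (Brush) and 2 given pacDNA with a scrambled sequence (pacDNA-Scr) at 5.3 mg/kg.

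L9 is a short locked nucleic acid complementary to CUG repeats. In myotonic dystrophy type 1, expanded CUG RNA holds muscleblind proteins in the nucleus, and the splicing and expression of many muscle genes change as a result. An oligonucleotide that covers the repeat can release these proteins. Resident macrophages are the main phagocytes of muscle, and they take up large particles and polymers from the interstitial fluid through endocytosis and pass them to lysosomes. Their best-known transcripts include the growth factor receptor *Csf1r*, the lysosomal glycoprotein *Cd68*, lysozyme (*Lyz2*) and the chains of complement C1q.

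Runs of CTG in mouse transcripts are the sequence that L9 can pair with outside the transgene, so 4 such runs are shown here with their effect described later. They come from GENCODE transcripts on GRCm39. CTG triplets are in capitals and neighboring bases in lower case, and of the runs in *Cdk14* and *Mapkap1* only the first 9 triplets are shown.
Cdk14: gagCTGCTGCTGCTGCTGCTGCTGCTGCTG
Mapkap1: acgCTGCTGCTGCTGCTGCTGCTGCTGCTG
Mllt3: gagCTGCTGCTGCTGCTGCTGCTGCTGctt
Tacc1: ccgCTGCTGCTGCTGCTGCTGCTGCTGcgg
The run in *Cdk14* (gene at chr5:4851602-5470312, minus strand) has 26 triplets in the 3′ UTR, and that in *Mapkap1* (chr2:34296783-34514971, plus strand) has 25 in the 3′ UTR. *Mllt3* (chr4:87687837-87951610, minus strand) has 8 in the 5′ UTR and *Tacc1* (chr8:25644394-25746604, minus strand) has 8 in the 3′ UTR.

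The 7 libraries held 13605309 to 22622625 counts. The samples fall into 2 deposited sets, since library numbers restart in the labels and only the earlier samples carry a strain label. pacDNA-L9 A and B and free L9 A and B belong to the first set, and pacDNA-L9 C and D and free L9 C to the second. Free L9 B stood apart. It had 12291 protein-coding genes with a count against 14010 to 15318 in the other 6, and 22.3% of its counts were mitochondrial. pacDNA-L9 C and D listed every one of the 37 mitochondrial genes at 0, whereas free L9 C, in the same set, had 12.0%. By the counts of *Xist* and Y-linked genes, 1 library of each group (pacDNA-L9 D and free L9 C) was male. The muscle markers *Ckm*, *Acta1*, *Ttn* and *Myh4* were abundant in all 7, with *Ckm* between 6671 and 26857 counts per 1e6 on nuclear protein-coding genes after TMM scaling (CPM) and *Ttn* between 7428 and 13967 CPM. Every CPM below is on this scale. Nothing in the labels says how the muscle of each mouse was divided or extracted, so p-values measure the spread between these samples.

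Few genes differed between the 2 forms of L9. Of 13815 genes tested, 4 passed an adjusted p of 0.05 (0.0290%, quasi-likelihood F-test of edgeR, p adjusted after Benjamini and Hochberg), and all 4 were higher with pacDNA-L9. They were *Mpeg1*, *Fcna*, *Gapdhrt2* and *Gm4631*. No gene was lower at this threshold, while 774 genes were lower at an unadjusted p under 0.05 (5.60%) and 587 higher (4.25%). DESeq2 on the same samples called 37 genes higher and 27 lower. With only the 7 libraries in the model, no gene passed.

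*Mpeg1* (chr19:12438114-12442649, GRCm39), which encodes perforin-2, a pore-forming protein that macrophages use against ingested microbes, was the clearest of the 4. It measured 13.4, 8.74, 16.7 and 14.2 CPM in pacDNA-L9 A to D and 1.97, 3.12 and 3.05 CPM in free L9 A to C. Every conjugate library was above every free L9 library, and the group means were 13.3 ± 3.33 (SD, n = 4) and 2.71 ± 0.647 CPM (SD, n = 3). The log2 fold change was 2.14 ± 0.37 (SE; 4.41-fold, 95% interval 1.39 to 2.89 on the log2 scale, edgeR adjusted p = 0.0160). In edgeR fits within each set it was 2.17 ± 0.49 in the first (adjusted p = 0.0365) and 2.34 ± 0.30 in the second, where free L9 was a single library and the spread was taken from the other groups (adjusted p = 0.0186), and without free L9 B it was 2.43 ± 0.43 (adjusted p = 0.0184). The call was lost without pacDNA-L9 A (log2 fold change 1.98, edgeR adjusted p = 0.10).

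The level of *Mpeg1* with free L9 lay within the range of nontreated mice, which was 1.62 to 6.47 CPM with a median of 4.26. WT mice had 1.96 to 3.91 CPM. The groups that received polymer were higher, at 10.9 and 14.7 CPM with Brush, 6.66 and 10.6 CPM with pacDNA-Scr, 9.00 to 43.3 CPM at 21.2 mg/kg and 21.6 to 40.0 CPM at 42.4 mg/kg. All of these libraries lay above the NT range. Against NT, which both comparisons share, the *Mpeg1* log2 fold change was 1.49 ± 0.26 for pacDNA-L9 at 5.3 mg/kg (edgeR adjusted p = 0.0652) and -0.65 ± 0.33 for free L9 (edgeR adjusted p = 0.408). Neither passed the threshold on its own.

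*Fcna* (chr2:25514671-25519013), which encodes ficolin A, a lectin of the complement system made by macrophages, was less abundant. It measured 3.07, 2.60, 6.24 and 4.83 CPM in pacDNA-L9 A to D, and 0.774, 0 and 0.421 CPM in free L9 A to C. The groups did not overlap. The log2 fold change was 3.06 ± 0.57 (edgeR adjusted p = 0.0457), and 17.2% of its exonic bases lie under exons of another gene. The log2 fold change of *Fcna* was 2.84 in the first set and 3.70 in the second, neither past the threshold. The edgeR adjusted p rose to 0.0676 without free L9 B and to between 0.0589 and 0.112 without any one of the conjugate libraries. NT libraries ranged from 0.727 to 3.51 CPM, so pacDNA-L9 A and B were inside the NT range and free L9 B and C were below it. The *Fcna* log2 fold change against NT was 0.97 for the conjugate and -2.09 for free L9, neither past the threshold.

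*Gapdhrt2* and *Gm4631* followed the deposited libraries and not the 2 forms of L9, and both groups overlapped. *Gapdhrt2* is a retrotransposed copy of the glycolysis gene *Gapdh*. It measured 0.188, 0, 114 and 132 CPM in pacDNA-L9 A to D and 0, 0 and 1.05 CPM in free L9 A to C. *Gm4631* showed the same division, with 0, 0.147, 25.7 and 29.6 CPM against 0, 0 and 0.947 CPM. The high values belong to the libraries that listed no mitochondrial counts. These include NT 7 and NT 8, with 88.5 and 117 CPM of *Gapdhrt2*, and the third library at 21.2 mg/kg, with 111 CPM. With those 5 libraries marked in the model in place of the set, the log2 fold change was -0.91 for *Gapdhrt2* (edgeR adjusted p = 0.704) and -2.77 for *Gm4631* (edgeR adjusted p = 0.218). *Gapdh* itself measured 570, 37.0, 4612 and 4960 CPM in pacDNA-L9 A to D and 1481, 702 and 486 CPM in free L9 A to C. How reads with several equally good positions were counted was not given in the sources used here.

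**Figure D1:**
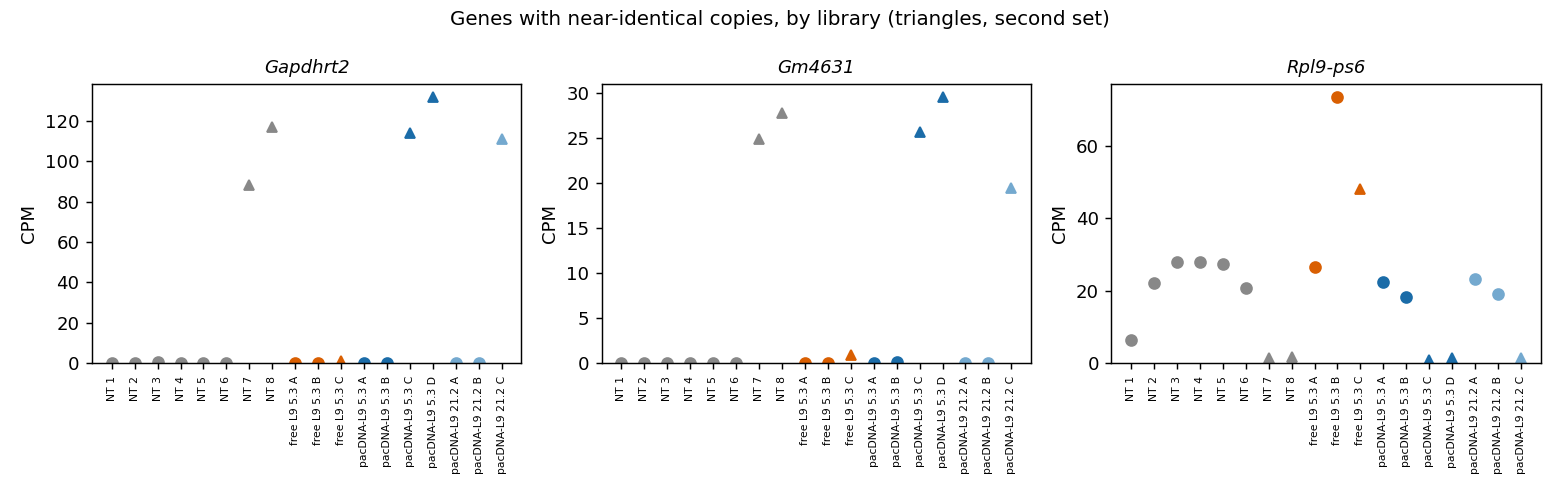
CPM of *Gapdhrt2*, *Gm4631* and *Rpl9-ps6* in each NT, free L9 (orange) and pacDNA-L9 (blue, light blue at 21.2 mg/kg) library, with circles for the first deposited set and triangles for the second. In the second set, 5 libraries hold 88.5 to 132 CPM of *Gapdhrt2* and at most 1.57 CPM of *Rpl9-ps6*, while free L9 C, also of that set, has 1.05 and 48.0 CPM.

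Several genes known from macrophages came next without passing the threshold in edgeR. By the naming rule, the higher genes with the smallest p after these 4 were *Ms4a6d*, *Pik3cg*, *Csf1r*, *Gstcd*, *Cybb*, *Sgsh*, *Slc37a2* and *Ms4a6b*, none of which passed (edgeR adjusted p from 0.124 to 0.158). With DESeq2 each of them passed (DESeq2 adjusted p from 0.00101 to 0.0421), so these calls depended on the method. *Csf1r*, the receptor for the growth factor that maintains macrophages, measured 27.9, 26.9, 25.3 and 26.2 CPM with pacDNA-L9 and 11.4, 11.6 and 17.0 CPM with free L9. The conjugate libraries lay close together and above all free L9 libraries. The log2 fold change was 0.98 ± 0.21 (edgeR adjusted p = 0.124), 1.30 within the first set and 0.60 within the second. NT ranged from 13.2 to 21.6 CPM for *Csf1r*, so free L9 A and B were just below the NT range and the conjugate above it.

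*Cybb*, the catalytic chain of the phagocyte NADPH oxidase, measured 5.07, 4.42, 5.41 and 3.78 CPM with the conjugate and 0.774, 1.63 and 2.63 CPM with free L9. The log2 fold change of *Cybb* was 1.5 ± 0.33, and the groups did not overlap. It was 2.04 within the first set and 0.81 within the second. *Sgsh*, a lysosomal enzyme that degrades heparan sulfate, measured 6.89, 6.09, 7.39 and 4.58 CPM against 2.62, 1.42 and 3.79 CPM, again without overlap. Its log2 fold change was 1.72 within the first set and 0.66 within the second. *Ms4a6d*, a membrane protein of macrophages, was listed at 0 in free L9 A and B, at 0.421 CPM in free L9 C and at 0.982 to 1.57 CPM with the conjugate. *Pik3cg*, the gamma isoform of phosphoinositide 3-kinase in leukocytes, had 0 to 0.119 CPM with free L9 and 0.557 to 1.18 CPM with the conjugate. *Sgsh* and *Pik3cg* in NT ranged from 3.69 to 5.98 and from 0.336 to 0.780 CPM, so for both genes 3 of the 4 conjugate libraries were above the NT range. All 3 free L9 libraries were below it for *Pik3cg*, and free L9 A and B for *Sgsh*. Against the shared NT group, the log2 fold change of *Pik3cg* was 0.66 for the conjugate and -2.96 for free L9, and that of *Sgsh* 0.39 and -0.88, none past the adjusted threshold.

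**Figure D2:**
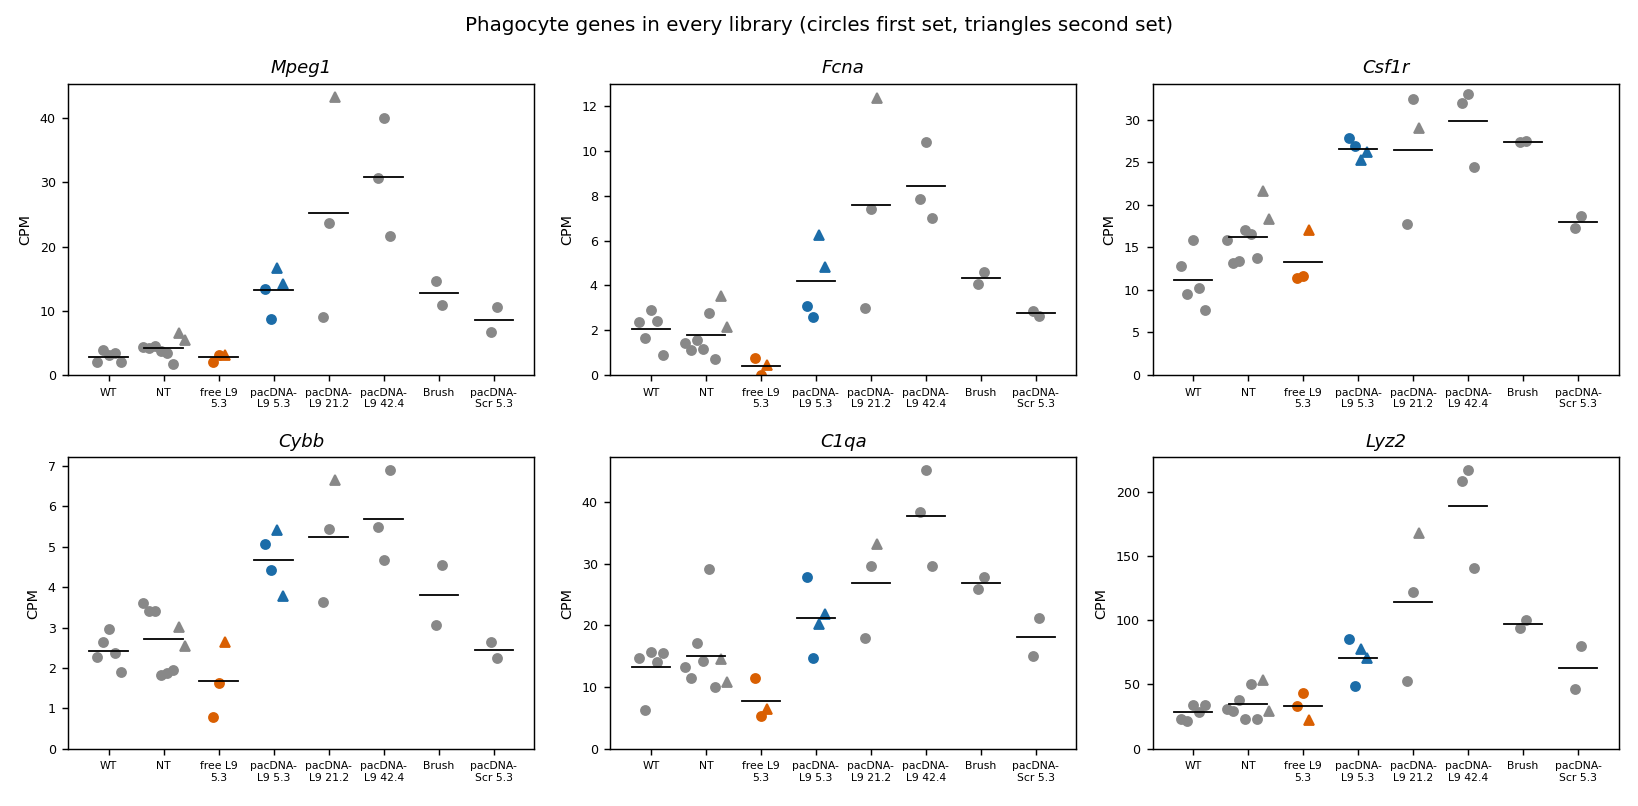
CPM of 6 phagocyte genes in every library of the 8 groups, with circles for the first deposited set, triangles for the second and a line at each group mean (orange, free L9; blue, pacDNA-L9 at 5.3 mg/kg). The 4 conjugate libraries sit above the 3 free L9 libraries in each panel, and for *Mpeg1* free L9 reaches 3.12 CPM while the conjugate starts at 8.74 CPM.

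The list of 26 macrophage genes was chosen with earlier results of these data known. Its counts describe these members and are not a test of how broad the difference was. Of its 25 tested members, 10 were higher in all 4 conjugate libraries than in all 3 free L9 libraries (40.0%), against 346 of all genes tested (2.50%), and none was lower in this sense (1.69% of all genes). At an unadjusted p under 0.05, 12 members were higher and 1 was lower. None passed the adjusted threshold in edgeR, while *Csf1r*, *Cybb*, *C1qa* and *Cd68* passed it with DESeq2. The median log2 fold change of the list was 0.67, against -0.01 over all genes tested, and 21 of the 25 were positive. Against NT, the same members had a median of 0.51 for the conjugate and -0.11 for free L9. The mean of log2(CPM + 0.5) over the list was 2.84 to 3.13 in the conjugate libraries and 2.24 to 2.49 in free L9. It was 2.20 to 2.93 in NT, 3.04 and 3.19 with Brush, 2.60 and 2.94 with pacDNA-Scr and 3.39 to 3.75 at 42.4 mg/kg. This mean gives each member equal weight, whatever its abundance. The summed CPM of the list did overlap, with 933 to 1043 in the conjugate libraries and 1068, 659 and 705 in free L9 A to C. NT libraries had sums of 707 to 1142 CPM. In bulk muscle, a change in the number of macrophages cannot be told apart from a change in RNA per cell.

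The 10 members without overlap were *Csf1r* and *Cybb*, described above, and 8 others. *C1qa*, a chain of the complement C1q molecule, measured 27.9, 14.8, 20.2 and 21.9 CPM with pacDNA-L9 and 11.5, 5.29 and 6.42 CPM with free L9 (log2 fold change 1.46 ± 0.36, edgeR adjusted p = 0.185). *C1qc* followed with a log2 fold change of 1.10 ± 0.34 and no overlap, whereas *C1qb* had 0.67 ± 0.39 and overlapped. *Cd68* measured 11.3, 18.2, 12.4 and 19.3 CPM against 7.92, 7.66 and 2.00 CPM, and its NT range was 3.55 to 8.25 CPM. The log2 fold change of *Cd68* was 0.97 within the first set and 2.98 within the second. *Lyz2* measured 85.3, 49.1, 77.5 and 70.7 CPM against 33.1, 43.3 and 22.2 CPM. Free L9 A and B and pacDNA-L9 B were inside the NT range of 23.0 to 53.2 CPM. Free L9 C was just below that range and the other conjugate libraries above it. Brush had 93.7 and 100 CPM of *Lyz2*, and 42.4 mg/kg reached 141 to 217 CPM. The other members without overlap were *Ctss*, *Tyrobp*, *Lgals3* and *Trem2*, with log2 fold changes from 1.04 to 1.43.

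Other macrophage markers overlapped between the groups. *Mrc1* and *Cd163*, scavenger receptors of resident macrophages, had log2 fold changes of 0.40 and 0.11 (95% interval of *Cd163* -0.58 to 0.80), which became 1.11 and 0.89 without free L9 B, neither past the adjusted threshold, and *Lyve1*, another resident marker, had 0.54. Each was highest in free L9 B, with 25.5 CPM of *Mrc1*, 15.9 CPM of *Cd163* and 10.5 CPM of *Lyve1*, above every conjugate library. Free L9 A and C had 1.67 and 2.00 CPM of *Lyve1*, below the 6.18 to 8.64 CPM of the conjugate. Without free L9 B, the *Lyve1* log2 fold change was 1.98 ± 0.33 and passed the test (edgeR adjusted p = 0.00809). *Adgre1*, the F4/80 antigen, measured 2.82, 2.16, 2.08 and 1.80 CPM with the conjugate and 0.119, 0 and 2.00 CPM with free L9, and its difference appeared in the first set only (log2 fold change 5.20 against -0.04, a difference of -5.19). *Spp1*, which encodes osteopontin, was the 1 member lower at an unadjusted p under 0.05 (log2 fold change -1.09). *Ctsb* and *Ctsd*, the 2 most abundant members and shared with muscle fibers, had log2 fold changes of 0.13 and 0.20.

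**Figure D3:**
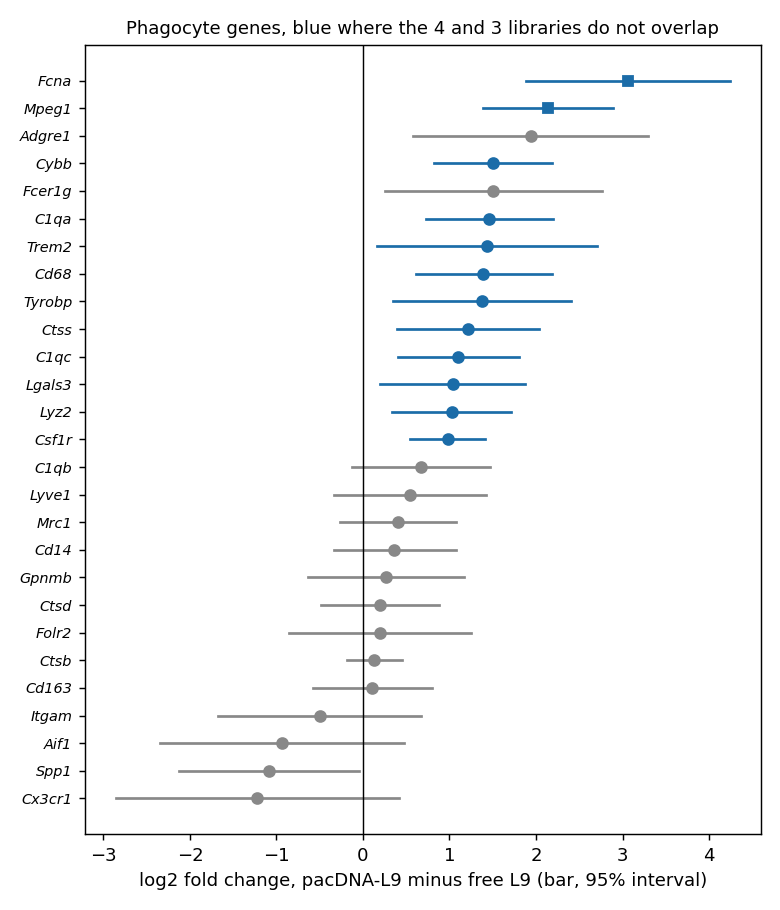
Log2 fold change (pacDNA-L9 minus free L9, horizontal axis) with its 95% interval for the 25 tested macrophage genes (circles) and for *Mpeg1* and *Fcna* (squares), blue where the libraries of the 2 groups do not overlap. Most points lie right of 0, from -1.22 for *Cx3cr1* to 3.06 for *Fcna*.

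Gene groups next to the macrophage list follow. Over all genes tested, 4.25% were higher and 5.60% lower at an unadjusted p under 0.05. Of 16 scavenger and endocytic receptors tested, 2 were higher at an unadjusted p under 0.05, *Msr1* and *Stab1*, and none had non-overlapping groups. *Stab1*, a clearance receptor, measured 39.7, 27.8, 16.4 and 19.9 CPM with the conjugate and 14.5, 11.7 and 17.9 CPM with free L9. Of 25 lysosome genes, 3 were higher at that level, among them *Laptm5* and *Grn*, and the median log2 fold change was 0.05. The interferon-stimulated list had a median of 0.04 over 20 genes, with 1 higher and 1 lower, and the acute inflammation list 0.02 over 12 genes, with none in either direction at an unadjusted p under 0.05. *Ptx3* and *Nfkbia*, its most abundant members, had log2 fold changes of -0.18 (95% interval -0.69 to 0.33) and -0.07 (-0.69 to 0.54). Of 16 sensors of foreign nucleic acid, *Tlr8* and *Irf7* were higher at an unadjusted p under 0.05 with CPM of at most 2.26, and the list median was -0.08. MHC class II genes had a median of -0.48 over 7 genes, and *H2-Ab1*, a class II chain, measured 3.73 to 9.04 CPM with the conjugate and 8.63 to 13.8 CPM with free L9 (log2 fold change -0.87 ± 0.33, edgeR adjusted p = 0.397). Of 13 lymphocyte markers only *Cd4* passed the filter on low counts, at most 0.638 CPM with the conjugate and listed at 0 in every free L9 library. Neutrophil and mast cell markers had a median of -0.01 over 6 genes, 3 of them positive and 2 higher at an unadjusted p under 0.05, and 1.73 without free L9 B. *S100a8*, a neutrophil marker, was at most 0.743 CPM and listed at 0 in all free L9 libraries.

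*Retnla*, a secreted protein of alternatively activated macrophages and fat, was among the 12 lower genes with the smallest p. It measured 10.7, 6.63, 11.2 and 8.17 CPM with the conjugate and 26.8, 65.8 and 9.89 CPM with free L9. Free L9 C lay among the conjugate libraries. The log2 fold change was -1.86 ± 0.44 (edgeR adjusted p = 0.166) and it was -1.0 without free L9 B and -0.03 within the second set. Brush, pacDNA-Scr and the higher doses had 3.26 to 11.4 CPM of *Retnla*, below the NT range of 14.0 to 31.9 CPM.

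The other lower genes named by the rule were *Rpl9-ps6*, *Kics2*, *Rpl10-ps3*, *Exosc10*, *Ankrd37*, *Adrm1b*, *Whamm*, *Hnrnpd*, *Ebf3*, *2510002D24Rik* and *Exosc1*, and none passed the threshold (edgeR adjusted p from 0.0814 to 0.185). With DESeq2 each of them passed, as did *Retnla* (DESeq2 adjusted p from 6.33e-05 to 0.0379). *Rpl9-ps6*, *Rpl10-ps3* and *Adrm1b* are copies of other genes and share the counting limit of *Gapdhrt2*. *Exosc10* and *Exosc1* encode parts of the RNA exosome, the complex that degrades RNA from its 3′ end. *Exosc10* measured 28.8, 27.4, 22.3 and 25.6 CPM with the conjugate and 34.7, 44.2 and 36.4 CPM with free L9 (log2 fold change -0.55 ± 0.12, edgeR adjusted p = 0.132). *Exosc1* measured 10.4 to 12.8 CPM with the conjugate and at least 14.5 CPM with free L9. *Kics2*, a subunit of a complex that links amino acids to mTORC1, had 1.75 to 2.31 CPM against 3.75, 7.87 and 4.21 CPM. These 3 did not overlap, and in each free L9 B was the highest library.

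Immediate early genes, which respond within minutes to stimulation of a cell, had a median of -0.54 over 21 genes tested, and -0.63 without free L9 B. At an unadjusted p under 0.05, 7 members were lower and none was higher, against 5.60% and 4.25% of all genes tested. Within the first set the median was -0.75, but no member was lower or higher at that level. Within the second set, with a single free L9 library, the median was -0.51. Of the members, 5 were lower without overlap between the groups (against 1.69% of all genes), and none passed the adjusted threshold. *Egr1*, a zinc finger transcription factor, measured 19.7, 15.0, 19.8 and 14.7 CPM with pacDNA-L9 and 95.7, 58.7 and 158 CPM with free L9 (log2 fold change -2.60 ± 0.86, edgeR adjusted p = 0.316). *Fos*, a subunit of the AP-1 factor, measured 32.1, 11.1, 21.4 and 23.8 CPM against 176, 39.3 and 289 CPM. *Egr2*, *Fosb* and *Zfp36* were the other 3 without overlap. These differences were not stable to the model. With the libraries that listed no mitochondrial counts marked in place of the set, the log2 fold change was -1.51 for *Egr1*, -1.23 for *Fos* and -0.84 for *Zfp36*.

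The same genes varied widely among mice that were not treated. *Egr1* ranged from 7.38 to 135 CPM and *Fos* from 3.75 to 274 CPM over the 8 NT libraries. The conjugate libraries lay inside these ranges, and so did free L9 A and B, while free L9 C was above both. pacDNA-Scr had 26.1 and 140 CPM of *Egr1*, and Brush had 20.0 and 28.7 CPM. Members of the list that were high in pacDNA-L9 D alone included *Nr4a3*, with 102 CPM there and 3.93 to 12.6 CPM in the other 6 libraries.

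**Figure D4:**
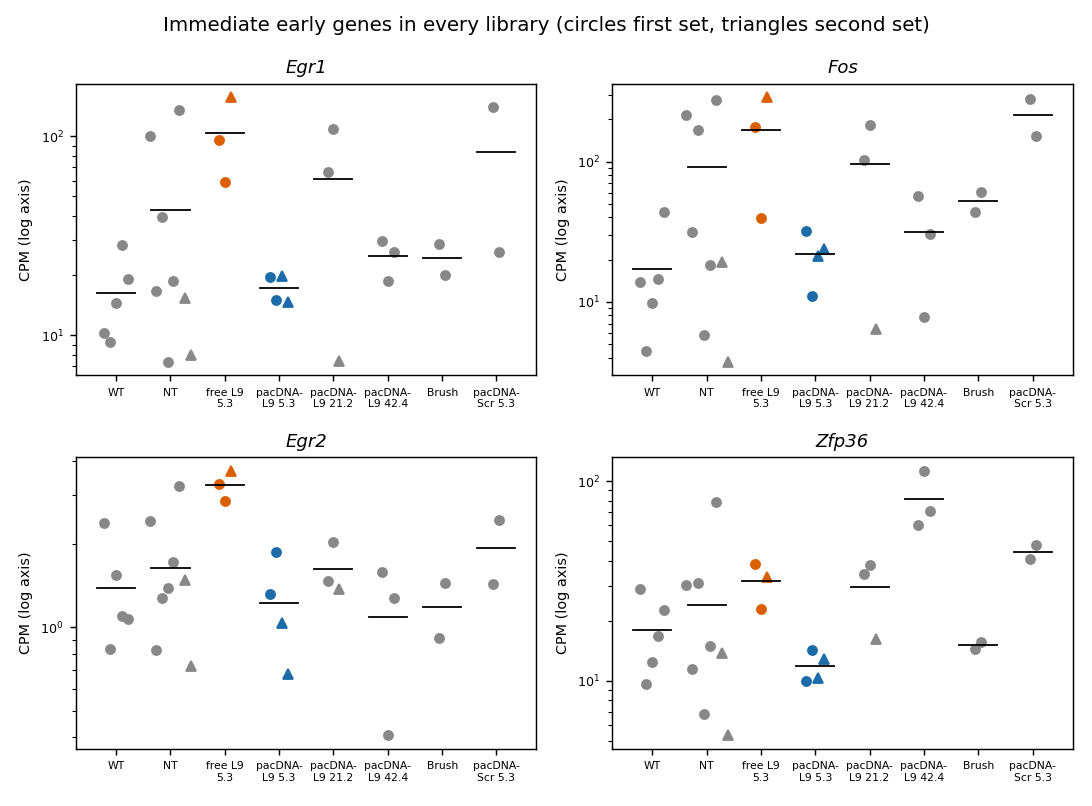
CPM on a log axis of *Egr1*, *Fos*, *Egr2* and *Zfp36* in every library of the 8 groups, with circles for the first deposited set, triangles for the second and a line at each group mean. The 3 free L9 libraries (orange) lie above the 4 conjugate libraries (blue) in each panel, and the NT libraries span 7.38 to 135 CPM for *Egr1*.

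Genes that define the disease model did not separate the 2 forms past the edgeR threshold at this depth. Nontreated HSALR and WT mice differed in 351 of the 13815 genes (2.54%, adjusted p under 0.05 and absolute log2 fold change over 1). None of the 351 differed between pacDNA-L9 and free L9 past the threshold, while 26 were higher (7.41%, against 4.25% of all genes) and 20 lower (5.70%, against 5.60%) at an unadjusted p under 0.05, and DESeq2 gave 4 calls in place of none. Signed in the direction from NT toward WT, the difference between conjugate and free L9 was positive for 179 of the 351, with a median of 0.01. This sign does not measure distance to WT, since a value past the WT level also counts as positive. The 254 genes higher in NT had a median log2 fold change of 0.03 between the forms and the 97 lower in NT had 0.11. Of the 254, 22 were higher with the conjugate (8.66%) and 14 lower (5.51%) at an unadjusted p under 0.05. Of the 97, 4 were higher (4.12%) and 6 lower (6.19%) at that level. *Cd68* is one of the 351 (log2 fold change 1.56 between NT and WT), and the conjugate was farther from WT than free L9 in this gene.

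*Clcn1*, the chloride channel whose loss causes myotonia, measured 104, 117, 87.9 and 72.7 CPM with pacDNA-L9 and 87.0, 67.8 and 139 CPM with free L9. The groups overlapped, the log2 fold change was -0.04 with a 95% interval of -0.53 to 0.44, and WT libraries had 140 to 245 CPM. The sets ran in opposite directions for *Clcn1*, with 0.56 ± 0.23 in the first (edgeR adjusted p = 0.211) and -0.79 ± 0.27 in the second (edgeR adjusted p = 0.397). *Atp2a1*, the calcium pump of fast fibers, had a log2 fold change of 0.00 (-0.41 to 0.42). *Mbnl1*, the splicing factor bound by CUG repeats, had -0.26 (-0.67 to 0.14) and *Dmpk*, whose human form carries the repeat in patients, -0.07 (-0.42 to 0.28). Mouse *Acta1* had -0.07 (-0.54 to 0.40), with 32661 to 47636 CPM in the conjugate and 23575 to 68141 CPM in free L9, and reads of the human transgene that match it cannot be told apart in this table. *Gtf2b*, a general transcription factor, had -0.26 (-0.64 to 0.12). Over 30 genes known to be mis-spliced in this disease, the median was -0.04. At an unadjusted p under 0.05, 2 were lower (*Tnnt3* and *Trim55*) and none higher, against 5.60% and 4.25% of all genes tested. The CPM values are totals per gene and hold nothing on exon use.

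Transcripts with CTG runs were examined because L9 can pair with them. Of 13791 tested genes with a protein-coding transcript, 2910 held a run of 3 or more triplets (21.1%), none of them called. The median log2 fold change was -0.02 for genes with 0 to 2 triplets, 0.03 for 3, 0.06 for 4 to 5 (413 genes) and 0.07 for 6 or more (101 genes). At an unadjusted p under 0.05, 8.91% of the genes with 6 or more triplets were higher with the conjugate and 4.95% lower, against 4.26% and 5.61% of all these genes. The share of the 4 to 5 group that was higher was 8.47% over both sets, but 16.5% within the first set and 1.76% within the second. Genes with 0 to 2 triplets had 8.30% and 6.09% in the same fits, and those with 6 or more 12.4% and 4.08%. None of the 4 genes whose runs are printed above passed the threshold. *Mapkap1*, a subunit of mTORC2, measured 49.3, 49.5, 49.2 and 44.8 CPM with the conjugate and 49.9, 45.2 and 47.0 CPM with free L9, so its log2 fold change of 0.04 had a 95% interval of -0.19 to 0.27. *Cdk14*, a cyclin-dependent kinase, had -0.29 (-0.96 to 0.37) and *Tacc1* 0.08 (-0.38 to 0.54). *Mllt3*, a chromatin reader, had -0.60 ± 0.21 (edgeR adjusted p = 0.316), with 190, 152, 209 and 183 CPM against 236, 408 and 179 CPM.

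The study's list of 21 genes with short CTG tracts, all tested, had a median log2 fold change of -0.08. *Nr3c1* and *Dap* are listed there for CAG tracts, and each held a CTG run of 2 triplets here. None of the 21 passed the threshold. At an unadjusted p under 0.05, 3 were lower (*Mllt3*, *Papss2* and *Tnfrsf22*) and none higher, against 5.60% and 4.25% of all genes tested. *Tnfrsf22*, a decoy receptor, was the 1 member of the 21 without overlap, with 3.28 to 5.25 CPM in the conjugate and 6.42 to 8.41 CPM in free L9. Of all genes tested, 1.69% were lower without overlap, so a single member says little about the list. *Papss2*, which makes the sulfate donor, and *Mllt3* were both highest in free L9 B, with 22.7 and 408 CPM. The longest run in the list had 25 triplets (*Mapkap1*) and the shortest 2. Some run lengths found here differ from those the study lists, among them *Fgd4* (3 triplets here) and *Armcx6* (12 triplets here).

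No muscle fiber or metabolic list held a gene past the threshold. The fast fiber list had -0.15 over 13 genes and the slow fiber list -0.27 over 12. The slow fiber median was -0.63 without free L9 B, but 0.63 within the second set and 1.14, with all 12 positive, with the column naming style as covariate, so its direction was not stable. That covariate marks libraries with a short column name in the deposited table, among the 7 free L9 A and B. *Myh4*, the fast myosin, had -0.43 (95% interval -1.01 to 0.16). Oxidative phosphorylation had -0.03 over 34 genes, glycolysis and hypoxia -0.01 over 22, the proteasome -0.11 over 28 and the cytosolic ribosome -0.11 over 41. Extracellular matrix genes had 0.27 over 26, and 19 of the 26 were positive without any at an unadjusted p under 0.05. *Col3a1*, a fibrillar collagen, measured 955, 724, 408 and 283 CPM against 301, 606 and 349 CPM. Glucocorticoid targets had 0.28 over 17, and *Fkbp5*, a co-chaperone of the glucocorticoid receptor, measured 10.1, 72.0, 44.2 and 107 CPM against 12.6, 6.51 and 15.7 CPM (log2 fold change 2.24 ± 0.73, edgeR adjusted p = 0.316). pacDNA-L9 A lay with free L9 in this gene. *Klf15*, another target, did not overlap, with 34.2 to 56.2 CPM against 26.0 to 29.5 CPM. It was the 1 target of the 17 without overlap (5.88%, against 2.50% of all genes higher in this sense). The atrophy list, with targets of FOXO factors, had 0.24 over 16 genes, of which 12 were positive and 1 was higher at an unadjusted p under 0.05. Regulators of the muscleblind and CELF families had -0.13 over 14, complement and coagulation genes -0.12 over 14, autophagy genes 0.01 over 18, calcium handling genes 0.00 over 18, neuromuscular junction genes 0.01 over 15 and heat shock genes 0.10 over 18.

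Markers of other cells in muscle gave a check on what the samples held. Endothelial markers had a median of -0.06 over 12 genes, adipocyte markers -0.15 over 10 and Schwann cell markers -0.20 over 10. Myonuclear markers had -0.27 over 10 with none positive, and erythroid markers -0.45 over 6 with 1 positive. Without free L9 B the adipocyte median was 1.71 with all 10 positive, and the erythroid median -0.88. The part of these shifts in the macrophage values was not tested. Adipocyte markers varied within both groups, and *Fabp4*, the fatty acid carrier of fat cells, ranged from 108 to 657 CPM in the conjugate and from 191 to 1358 CPM in free L9.

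**Figure D5:**
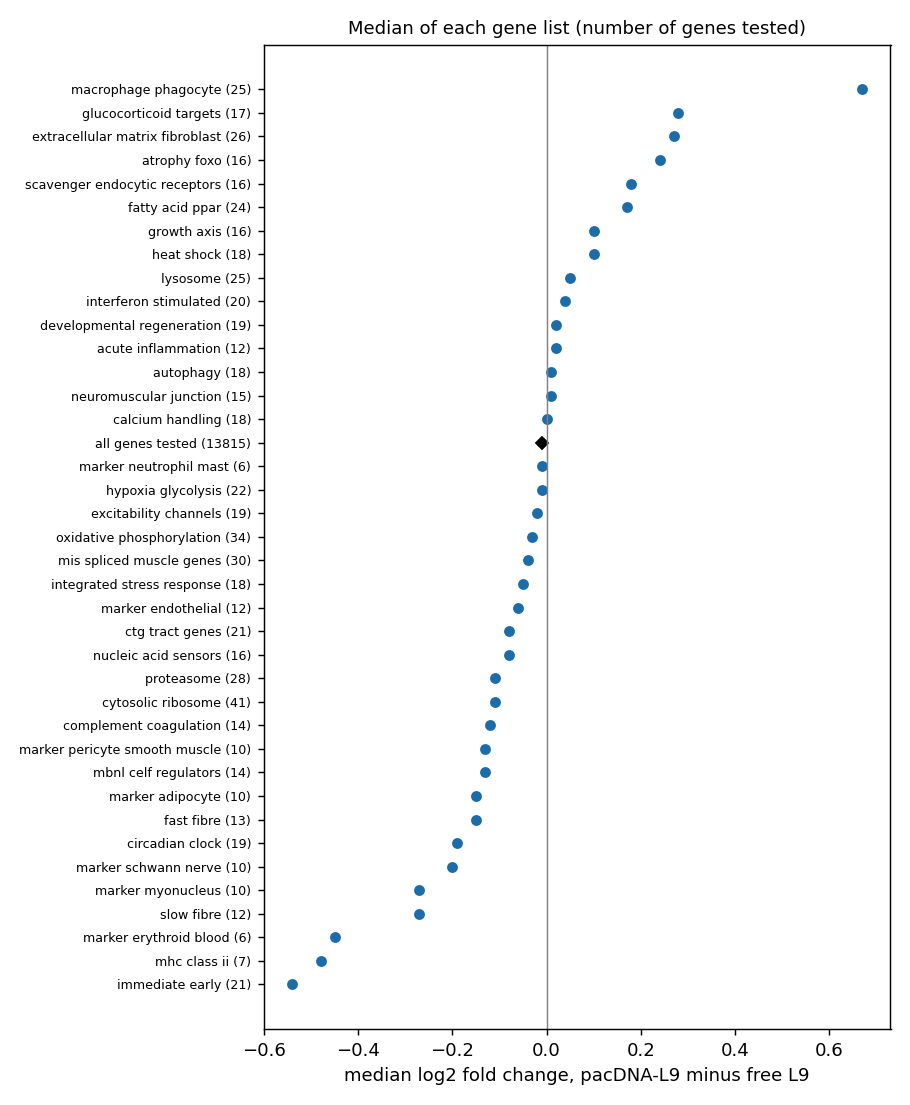
Median log2 fold change (pacDNA-L9 minus free L9) of each gene list with 5 or more tested genes, with the number tested in brackets and all genes as a black diamond. The macrophage list lies at 0.67 and the immediate early list at -0.54, the ends of this order with all 7 libraries. Without free L9 B, adipocyte (1.71) and neutrophil and mast cell markers (1.73) exceed the macrophage list (1.00) and erythroid markers (-0.88) lie lowest of these.

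Leaving out free L9 B changed which genes passed. Without it 11 genes were called of 13761 (0.0799%), 6 higher and 5 lower. *Mpeg1*, *Gapdhrt2* and *Gm4631* were among the 6, and *Fcna* was not. The added higher genes were *Lyve1*, *Uba3* (a ubiquitin-like activating enzyme) and *Ramacl*, which had 210 and 212 CPM in pacDNA-L9 C and D and at most 1.49 CPM in the other 5 libraries. The lower genes were *Dnajc4*, *Fzd9*, *Yjefn3*, *Or5p58* and *Rpl9-ps6*. *Fzd9*, a Wnt receptor, measured 54.6 and 43.1 CPM in free L9 A and C, 20.6 to 38.1 CPM in the conjugate and 5.36 CPM in free L9 B. The macrophage list then had 14 members higher and none lower at an unadjusted p under 0.05, with a median of 1.00.

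The 2 deposited sets did not give the same comparison for every gene. The contrast differed between them in 62 genes (0.449%, edgeR's quasi-likelihood test of the interaction, adjusted p under 0.05), and in 43 of the 62 free L9 B was the highest or lowest of the 7 libraries. The first set alone called 80 genes higher and 63 lower, and free L9 B was at an extreme in 127 of these 143. Both groups of genes were picked by tests that used free L9 B. The share of all genes tested with this library at an extreme was not computed, so neither count singles it out. The second set alone called 21 higher and 16 lower, with a single free L9 library whose spread was assumed to be that of the other groups.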

How the data were processed

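Quadriceps poly(A) RNA was sequenced. The submitters' processing notes name HISAT2 2.0.5, DESeq2 and GRCm39 (mm39). The authors deposited raw counts per gene, without normalization, for 56748 Ensembl genes, of which 56017 were matched to GENCODE vM39. Counting options, strand and the treatment of reads with several positions were not given in the sources used here. Groups and replicate letters came from the labels, and the deposited set from the restart of library numbers in them. The members and gene lists were chosen with earlier results of these data known. The list of CTG tract genes is the study's own.

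Counts of the 21617 nuclear protein-coding genes were tested in R 4.3.3 using edgeR 4.0.16. The filterByExpr filter over the 8 conditions left 13815 genes, and libraries were scaled by TMM. A robust quasi-likelihood model with condition and deposited set was fitted to all 30 libraries, and p-values were adjusted by Benjamini-Hochberg over all genes tested. DESeq2 1.42.0 was an alternative. Genes were named by rule: in each direction the 12 with the largest change among those past 0.05, averaging 5 CPM or more without overlap, filled up by the smallest p; of each list, members past 0.05 or otherwise the 2 most abundant; and *Acta1*, *Dmpk*, *Mbnl1*, *Clcn1*, *Atp2a1* and *Gtf2b*. All other genes named were chosen after their values were seen. Intervals are 95% intervals of the fitted log2 fold change. The model was also run on simulated counts with a common spread, no difference between the sets and no deviating library. That run therefore cannot test how the model handles free L9 B or the genes with copies. Same-letter libraries did not deviate together in every pair (residual correlations 0.420, 0.171 and -0.319 for A, B and C), so the letters were not treated as pairs. Triplet runs were the longest in any protein-coding GENCODE transcript of a gene. Total counts set the precision, and a count of 0 allows up to 3 counts, for counting error only. No per-sample column was left out. Some items are not reported here.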

Additional observations from a re-analysis of the deposited data

Results flagged for a closer look

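The contrast of pacDNA-L9 with free L9 differed between the deposited sets in 62 genes. Among the genes named here these include *Rpl9-ps6* (a difference of -4.11 on the log2 scale, second minus first set), a gene with near-identical copies, and *Adgre1* (-5.19), in which free L9 C was at the level of the conjugate and free L9 A and B were at or near 0.

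In the group of 4 conjugate libraries, 1 library stood apart from the other 3 in 8 of 74 genes examined, and chance flags about 5% of groups. pacDNA-L9 B was apart in *Gstcd* (1.96 CPM), *Adrm1b* (1.13 CPM) and *Ebf3* (9.03 CPM), and pacDNA-L9 A in *Slc37a2* (3.19 CPM). pacDNA-L9 D was apart in *Cd163* (7.37 CPM) and in the immediate early genes *Nr4a2* (17.7 CPM), *Nr4a3* (102 CPM) and *Btg2* (86.8 CPM).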

How the results depend on the processing

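The count of 4 genes was 4 under DESeq2 size factors within edgeR, library size alone and no filter (all 4 shared), 4 with the column naming style as covariate (2 shared), and 5 with sex as covariate or without robust estimation. It was 0 with at least 10 counts in every library, with only the 7 libraries and without the set in the model, 143 in the first set, 37 in the second, 126 with all genes of the table, 64 with DESeq2, and 2 to 691 without 1 library (691 without free L9 C, 53 without free L9 A, 11 without free L9 B, 2 without pacDNA-L9 A). With the letters A to C as a replicate block over 6 libraries it was 0, and the log2 fold change of *Clcn1* was 0.16. The labels do not say that letters pair animals, and the residuals of the C libraries correlated at -0.319. Chosen after seeing the data, the count was 211 with the libraries listing no mitochondrial counts as covariate and 1 (*Mpeg1*) without the 192 genes that shifted by over 3 between NT libraries of the sets. The cause was not tested for any of these.

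Among the 351 disease genes 0 were called, but 3 in the first set, 4 in the second, 4 with DESeq2, 1 with the mitochondrial covariate and 0 to 10 without 1 library (10 without free L9 C). The count of 62 genes differing between the sets was 29 with library size alone, 38 without a filter, 95 with at least 10 counts in every library, 11 with the column naming style as covariate, and 6 to 3957 without 1 library (3957 without free L9 A, 29 without free L9 B, and 6, 10, 7 and 6 without pacDNA-L9 A to D; without free L9 C it could not be fitted). *Mpeg1* with pacDNA-L9 against NT passed the threshold without a filter (1.51), with DESeq2 (1.51) and without free L9 B (adjusted p = 0.0489, edgeR), and ran from 1.32 to 1.58 without 1 library. *Mpeg1* between the forms stayed between 1.88 and 2.43 but missed the threshold with at least 10 counts in every library (2.13), only the 7 libraries (2.20), no set (2.29), the naming style (1.92) and the replicate block (2.26). It also missed the threshold without pacDNA-L9 A, as given above.

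The macrophage median was 1.00 without free L9 B, 0.88 in the second set and 0.82 with the naming style. The slow fiber median (-0.27) turned to 0.63 in the second set and 1.14 with the naming style, and the adipocyte median (-0.15) to 1.71 without free L9 B and 0.47 in the second set. In the first set the CTG tract median was 0.07 and that of mis-spliced genes 0.15.

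Signs turned, none of them past the threshold, as follows. With the mitochondrial covariate *Gapdhrt2* was -0.91, *Gm4631* -2.77, *Acta1* 0.10, *Dmpk* 0.05, *Clcn1* 0.14 and *Atp2a1* -0.07. With library size alone *Acta1* was 0.02, *Dmpk* 0.00 and *Clcn1* 0.04. In the first set *Acta1* was 0.04, *Dmpk* 0.07 and *Clcn1* 0.56, and in the second *Mbnl1* 0.05, *Atp2a1* -0.21 and *Gtf2b* 0.18. *Clcn1* was 0.00 without a filter, 0.02 with sex and 0.00 with all genes, and *Atp2a1* was -0.03 with the 7 libraries and -0.14 with the naming style. Without 1 library *Acta1* ran from -0.38 to 0.23, *Dmpk* from -0.24 to 0.07, *Mbnl1* from -0.47 to 0.16, *Clcn1* from -0.27 to 0.48 and *Atp2a1* from -0.25 to 0.20.

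Depth limits genes under about 1 CPM, and free L9 B held 0 counts in 1705 tested genes.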
